A study of Mus musculus with 40 samples.

Results

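The Mgp1U3 line is a culture of 4T1 cells that carried the short hairpin RNA Mgp1U3, and it was profiled by RNA sequencing beside 3 lines with other hairpins against the same gene. Its members are the 2 columns of Mgp1U3 in the expression table for Mgp, out of 20 columns for 10 hairpins in the whole series. They were set against the 6 columns of the lines Mgp1, Mgp1U1 and Mgp2, with 2 columns each. The other hairpin of that table, 88943, was left out because its cells were selected with another drug. The labels list 40 samples, 4 for each hairpin, and the 20 columns could be tied to a hairpin but not to a single sample.

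The study asked how far hairpins disturb transcripts other than their target, comparing hairpins of the TRC collection with hairpins that were chosen by the shERWOOD algorithm and placed in a microRNA scaffold called ultramiR. A hairpin RNA is cut by the cell into a small guide RNA that lowers mRNAs to which it pairs. 4T1 is a mouse mammary carcinoma cell line. Infection used a multiplicity of 0.3, and drug selection lasted about 10 days. All 4 lines compared here carried a hairpin against Mgp and were selected with 500 µg/ml hygromycin, while 88943 was selected with puromycin. That these 4 hairpins are the shERWOOD designs was inferred from their names and the drug, since no label gives the source of a hairpin. The labels call the 4 samples of a hairpin replicates A_1, A_2, B_1 and B_2, without saying what A and B stand for. No label used here describes separate infections with a hairpin, so the hairpin and the history of its line cannot be told apart. No untransduced line was analysed here, and no line with a hairpin against another gene entered the tests. Every tested difference below is therefore a difference from other Mgp hairpins. Lines with hairpins against Slpi are set beside Mgp1U3 by level alone, near the end of the results. Nothing says that the 2 libraries of a line came from separate cultures, and p-values cover only how far these libraries differ, which may be technical.

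Mgp encodes matrix Gla protein, a secreted protein that binds calcium and restrains mineralization of soft tissue. The genes that stood apart in the Mgp1U3 line include members of the secretory program that interleukin 1, tumour necrosis factor and bacterial products switch on through the transcription factor NF-kappaB. In that program, kinases release NF-kappaB from its inhibitors, it enters the nucleus with partners such as AP-1, and it raises chemokines that attract neutrophils and monocytes, colony-stimulating factors, acute-phase proteins and matrix proteases. Tumour cells such as 4T1 secrete several of these factors, which act on bone marrow and on cells around the tumour.

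The stretches upstream of Cxcl1, Il1a, Mmp3 and Mmp13 are printed because, of the 14 genes furthest above the other lines on the log2 scale, these are the 4 whose window held a match to either motif searched. The windows of Lcn2, C3, Adamts1, Tfrc and Slpi held none. Each is the 250 bases before the annotated start in RefSeq (GRCm38.p6), read 5′ to 3′ on the strand of the gene. They lie at chr5:90890995-90891244 (plus strand) for Cxcl1, chr2:129309973-129310222 (minus strand) for Il1a, chr9:7445572-7445821 (plus strand) for Mmp3 and chr9:7272264-7272513 (plus strand) for Mmp13. Capitals mark matches to the kappaB motif or to the AP-1 motif TGANTCA, both searched on both strands.
Cxcl1: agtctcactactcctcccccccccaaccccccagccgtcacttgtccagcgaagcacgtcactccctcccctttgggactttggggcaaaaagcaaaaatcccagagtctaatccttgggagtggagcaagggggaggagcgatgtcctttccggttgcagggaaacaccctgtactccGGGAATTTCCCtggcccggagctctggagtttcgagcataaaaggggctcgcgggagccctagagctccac
Il1a: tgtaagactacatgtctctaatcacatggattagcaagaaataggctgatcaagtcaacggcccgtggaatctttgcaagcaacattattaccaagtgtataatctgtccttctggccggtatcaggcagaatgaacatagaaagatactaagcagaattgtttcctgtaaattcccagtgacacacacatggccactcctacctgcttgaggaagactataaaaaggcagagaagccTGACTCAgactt
Mmp3: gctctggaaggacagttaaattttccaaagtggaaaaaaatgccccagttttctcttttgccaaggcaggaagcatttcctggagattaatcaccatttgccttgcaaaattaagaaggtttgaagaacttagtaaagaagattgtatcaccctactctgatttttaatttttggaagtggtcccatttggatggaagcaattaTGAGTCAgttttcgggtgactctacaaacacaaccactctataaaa
Mmp13: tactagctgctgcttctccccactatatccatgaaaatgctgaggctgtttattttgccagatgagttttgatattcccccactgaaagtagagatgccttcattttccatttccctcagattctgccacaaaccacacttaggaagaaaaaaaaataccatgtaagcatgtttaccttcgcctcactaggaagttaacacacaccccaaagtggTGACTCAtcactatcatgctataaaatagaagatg
Cxcl1 held 2 overlapping kappaB matches, the first beginning 71 bases before the start. The AP-1 match began 12 bases before the start in Il1a, 46 bases before it in Mmp3 and 35 bases before it in Mmp13. Over all 32851 windows of the same length in the table, 7.3% held a kappaB match and 6.7% an AP-1 match. RefSeq windows were matched for 19 of the 28 genes with the largest log2 differences described below. A kappaB match stood in 1 of the 10 windows of the genes that were higher and in 4 of the 12 windows of the genes that were lower, and an AP-1 match in 3 and 1. These are matches of letters in short windows and describe the sequence alone. Of the 14 highest genes, Cxcl5, Ccl2, Csf3, Prl2c2 and Ctgf had no window matched by name and were not searched.

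The 8 libraries held 12.08 M to 22.91 M counted reads, and the Mgp1U3 libraries held 17.92 M and 12.08 M. A level below is in CPM, the reads counted for a gene for every 1000000 reads counted in its library. Log2 differences are on the authors' variance-stabilized scale, on which a doubling from 100 to 200 scaled reads is 0.34, from 1000 to 2000 is 0.75 and from 10000 to 20000 is 0.96. They therefore understate the change of weakly read genes, and folds are ratios of scaled reads. The libraries of Mgp2 differed most from each other, where chi-square over its degrees of freedom was 12.07, against 3.77 for Mgp1U3, 1.87 for Mgp1 and 1.57 for Mgp1U1. Ribosomal Rn45s took 2.39% of the reads of Mgp2 replicate 1 and 0.961% to 1.71% of the other comparison libraries, and 1.5% and 1.39% in Mgp1U3. All 8 markers of mammary carcinoma cells were read, with summed levels of 2830 to 2870 CPM in Mgp1U3 and 2700 to 3080 CPM in the other lines, and Cd44 averaged 1170 CPM. Of these 8, 5 were called lower in Mgp1U3 by the test described below (Msln, Krt7, Krt8, Krt18 and Krt19) and 1 higher (Cdh1, 0.13), with a median log2 difference of -0.15, where 4.58% of all genes tested were lower and 5.05% higher. Of 10 macrophage and leukocyte markers in the table, Cd68 alone had a mean over 1 CPM, and Emr1 (the macrophage marker F4/80) and Tyrobp had no read in any of the 8 libraries, where a count of 0 allows up to 0.248 CPM in the shallowest. The summed leukocyte markers lay at 4.58 to 5.21 CPM in Mgp1U3 and 4.42 to 5.95 CPM in the others. Fibroblast markers summed to 28.8 to 34.0 CPM against 25.2 to 34.8 CPM, most of it Pdgfra, with Col3a1 and Thy1 at 0. Endothelial markers summed to at most 1.41 and 1.45 CPM.

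The target itself was read least in the Mgp1U3 line. Mgp (ENSMUSG00000030218, minus strand of chromosome 6, 136872435 to 136875823, GRCm38) stood at 1.06 and 1.24 CPM in Mgp1U3, from 19 and 15 reads. It stood at 1.90 and 2.07 CPM in Mgp2, 2.47 and 3.19 CPM in Mgp1, and 8.42 and 8.22 CPM in Mgp1U1. Both Mgp1U3 libraries lay below all 6 others. Against the mean of the 3 lines the log2 difference was -0.32 ± 0.04 (SE; limma with Benjamini-Hochberg adjustment, adjusted p = 7.1e-05), or 0.266 times the scaled reads. Mgp was lower in Mgp1U3 than in Mgp1 (limma, adjusted p = 0.01115) and Mgp1U1 (2.504e-07), and the difference from Mgp2 did not pass (0.06966). With the line means as samples the call against the mean ended, as given with the other settings in the closing section.

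The Mgp1U3 line differed from the mean of the other 3 lines at many genes by a small amount and at few genes by a large one. The threshold for a call was an adjusted p of 0.05, and 12232 genes that averaged 10 scaled reads or more were tested. Called genes numbered 1178, which is 9.63% of those tested, with 618 higher (5.05%) and 560 lower (4.58%). The median difference over all genes was 0, and 8 called genes differed by 0.5 or more on the log2 scale, 7 of them higher and 1 lower. Genes that were called in the same direction against each of the 3 lines as well numbered 107 (0.875%), with 57 higher (0.466%) and 50 lower (0.409%). At all 107, the range of the other 6 libraries held neither Mgp1U3 library, an outcome that passing against each line favours. Over all genes tested, both Mgp1U3 libraries lay above or below all 6 others at 19.4%. For the other lines in turn that share was 12.5% to 18.2%. The 14 highest and 14 lowest genes below were chosen to lie outside that range, so their lack of overlap is no separate result. The contrast against the mean, made for the other lines in turn, called 1330 genes for Mgp2 (10.9%), 463 for Mgp1 (3.79%) and 407 for Mgp1U1 (3.33%). Against each of the remaining lines, 141, 41 and 73 genes were called. The number of calls for Mgp1U3 thus lay between those for the other lines. By pairs, Mgp1U3 differed from Mgp1 at 510 genes, from Mgp1U1 at 565 and from Mgp2 at 2052, while the pairs among the other lines gave 564 to 784 calls.

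The count of calls depended on single libraries and on what counts as a sample. It was 79 without Mgp1U3 replicate 2, 619 without Mgp1U3 replicate 1, 520 and 577 without replicates 1 and 2 of Mgp1, 600 and 482 without those of Mgp1U1, and 1729 and 2765 without those of Mgp2, and it was 7 with line means as samples. Those 7 genes were Cxcl5, Il1a, Cxcl1, Ccl2, Lcn2 and Adamts1, all higher, and Rpn1, lower. With equal library medians 62.6% of the calls were higher, against 52.5% as reported, and the median difference was 0.01.

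**Figure D1:**
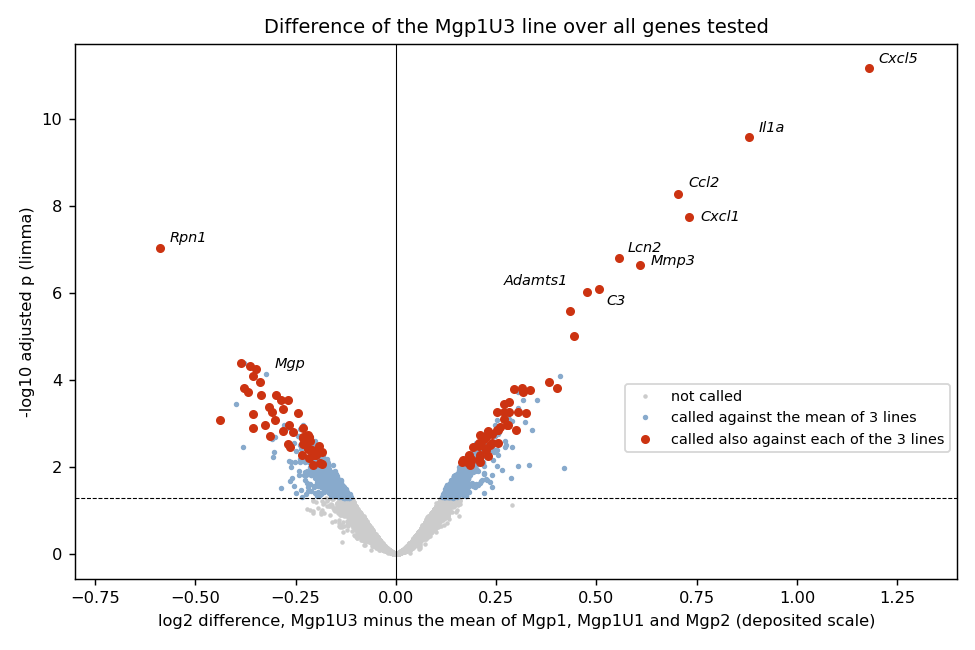
Each point is 1 of 12232 genes, with the log2 difference of the Mgp1U3 line from the mean of Mgp1, Mgp1U1 and Mgp2 on the x axis and -log10 of limma's adjusted p on the y axis, where the dashed line marks an adjusted p of 0.05. Red points are the 107 genes called against each line as well, and Cxcl5, at 1.18, and Rpn1, at -0.59, lie furthest out on either side.

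Chemokines held 3 of the 4 largest differences on the deposited log2 scale, which compresses weakly read genes. Cxcl5, which encodes a chemokine that attracts neutrophils through the receptor CXCR2, had the largest difference on that scale, while Il1a had the larger fold in scaled reads. Cxcl5 (ENSMUSG00000029371, plus strand of chromosome 5, 90759360 to 90761624) stood at 90.3 and 90.1 CPM in Mgp1U3, 33.1 and 36.1 CPM in Mgp1, 23.8 and 23.8 CPM in Mgp1U1, and 22.1 and 23.1 CPM in Mgp2. The lowest Mgp1U3 library lay well above the highest of the others. The log2 difference was 1.18 ± 0.04 (SE; limma, adjusted p = 6.841e-12), or 3.40-fold in scaled reads. Among the other 3 lines Mgp1 was above Mgp1U1 (limma, adjusted p = 0.001434) and Mgp2 (5.64e-04), and the difference between Mgp1U1 and Mgp2 did not pass (0.6328).

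Cxcl1, which lies near Cxcl5 on chromosome 5 (ENSMUSG00000029380, 90891241 to 90893115) and encodes a ligand of the same receptor, stood at 37.9 and 32.8 CPM in Mgp1U3. It stood at 17.5 and 16.9 CPM in Mgp1, 10.4 and 11.8 CPM in Mgp1U1, and 11.6 and 12.3 CPM in Mgp2. The groups did not overlap, and the log2 difference was 0.73 ± 0.04 (limma, adjusted p = 1.79e-08), or 2.68-fold. Mgp1 was above Mgp1U1 (limma, adjusted p = 0.006939) and Mgp2 (0.0171) here too, and the difference between the last 2 did not pass (0.703). Ccl2, which encodes a chemokine that attracts monocytes through CCR2, lies on chromosome 11 (ENSMUSG00000035385, plus strand, 82035571 to 82037453). It stood at 66.6 and 65.1 CPM in Mgp1U3, 30.2 and 32.4 CPM in Mgp1, 34.4 and 33.6 CPM in Mgp1U1, and 29.4 and 30.0 CPM in Mgp2. The other 6 libraries lay close together, no pair among the other 3 lines passed the test, and the Mgp1U3 difference was 0.70 ± 0.04 (limma, adjusted p = 5.351e-09), or 2.11-fold.

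Of the 28 chemokines listed, 12 had enough reads to be tested, 7 of them were higher in Mgp1U3 and none was lower, where 5.05% of all genes tested were higher. The median difference of the 12 was 0.18, against 0.0 over all genes, and 6 of the 7 were higher against each line, as were 0.466% of all genes. Cxcl2 and Cxcl3, further ligands of CXCR2, stood at 2.40 and 1.24 CPM and at 1.84 and 1.82 CPM in Mgp1U3, against at most 0.621 and 1.02 CPM in the other libraries, and both differences were 0.23, from 43 and 15 reads of Cxcl2 and 33 and 22 reads of Cxcl3 (limma, adjusted p = 0.004009 and 0.002044). Ccl7, which like Ccl2 attracts monocytes, stood at 3.18 and 2.15 CPM against 0.842 to 1.56 CPM (0.21; limma, adjusted p = 0.007605). Cxcl16, a membrane-bound chemokine, stood at 36.1 and 38.1 CPM in Mgp1U3 but at 41.6 and 39.8 CPM in Mgp2, and its difference from the mean (0.15; limma, adjusted p = 0.01816) therefore came with overlap. Cxcl10 (0.13), Ppbp (0.12), Ccl5 (0.02), Cx3cl1 (-0.0015) and Ccl25 (-0.02) did not pass, with limma adjusted p from 0.05119 for Cxcl10 to 0.9876 for Cx3cl1.

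**Figure D2:**
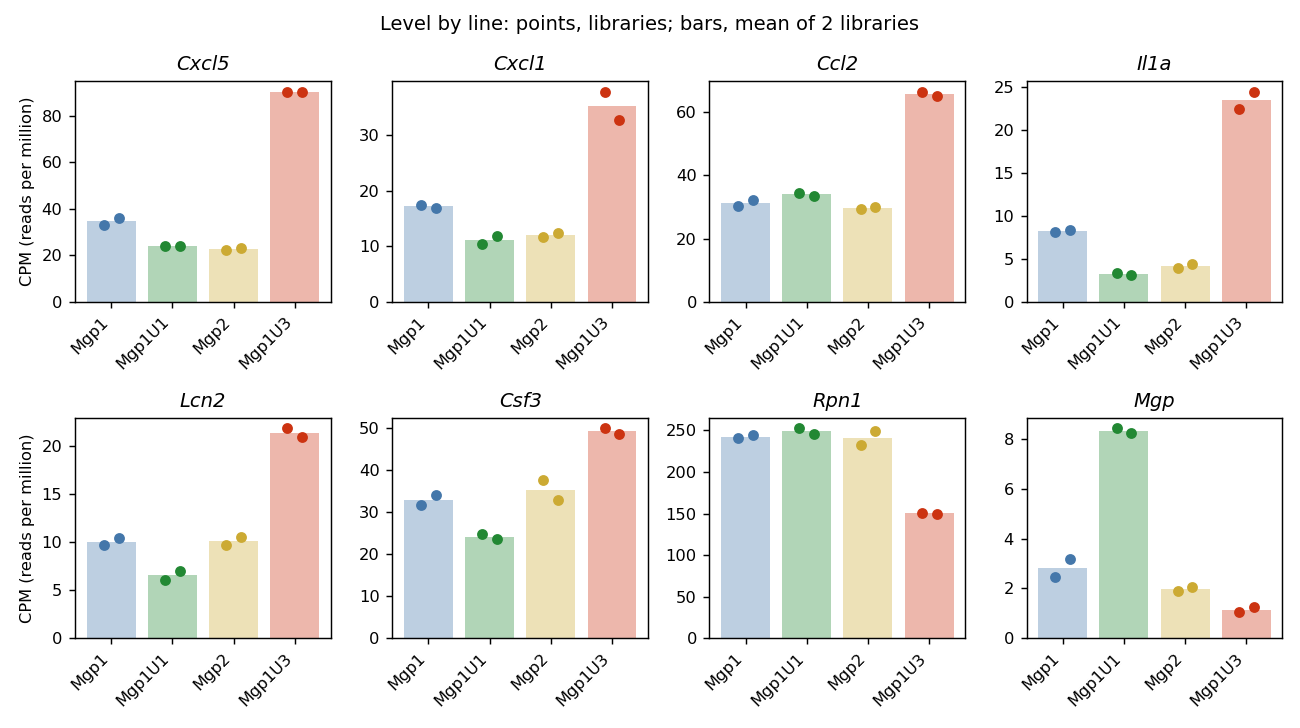
Levels in CPM (y axes, from 0) of 8 genes in the 4 lines (x axes), with points for the 2 libraries of each line and bars for their mean. Mgp1U3 libraries lie above all others for Cxcl5, Cxcl1, Ccl2, Il1a, Lcn2 and Csf3, and below all others for Rpn1 and Mgp.

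Among cytokines, Il1a stood out. It encodes interleukin 1 alpha, a ligand that starts NF-kappaB signalling through the interleukin 1 receptor. Il1a (ENSMUSG00000027399, minus strand of chromosome 2, 129299610 to 129309972) stood at 22.4 and 24.5 CPM in Mgp1U3, 8.15 and 8.38 CPM in Mgp1, 3.37 and 3.05 CPM in Mgp1U1, and 3.94 and 4.35 CPM in Mgp2. The groups did not overlap, and the difference was 0.88 ± 0.04 (SE; limma, adjusted p = 2.618e-10), or 4.59-fold in scaled reads. Mgp1 was again above Mgp1U1 (limma, adjusted p = 1.38e-04) and Mgp2 (0.001528). Exons of the gene model Gm14023 cover 11.2% of the exon bases of Il1a, and reads of the overlap cannot be assigned without the strand. Csf3, which encodes the granulocyte colony-stimulating factor, stood at 49.9 and 48.6 CPM in Mgp1U3 against 23.5 to 37.7 CPM in the other libraries (0.44 ± 0.04; limma, adjusted p = 9.521e-06). Here Mgp1U1 was the lowest line, below Mgp1 (limma, adjusted p = 0.01165) and Mgp2 (0.002115). Of 17 cytokines and colony-stimulating factors tested, 3 were higher (Il1a, Csf3 and Il24, the last by 0.21) and 1 was lower (Il11, by -0.22), with a median of 0.01. Over all genes tested, 5.05% were higher and 4.58% lower. Csf1 (0.01), Csf2 (0.01), Lif (0.10) and Il33 (-0.03) were among the 13 that did not pass.

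Acute-phase and antimicrobial proteins followed. Lcn2, which encodes lipocalin 2, a secreted protein that binds bacterial siderophores, stood at 21.8 and 20.9 CPM in Mgp1U3. It stood at 9.65 and 10.4 CPM in Mgp1, 6.02 and 7.04 CPM in Mgp1U1, and 9.70 and 10.6 CPM in Mgp2. The groups did not overlap, and the difference was 0.56 ± 0.04 (SE; limma, adjusted p = 1.523e-07), or 2.44-fold. For Lcn2 it was Mgp1U1 that lay below Mgp1 (limma, adjusted p = 0.01624) and Mgp2 (0.01173), while the difference between Mgp1 and Mgp2 did not pass (0.9394). C3, the central component of complement, stood at 30.7 and 35.3 CPM in Mgp1U3, 23.3 and 22.5 CPM in Mgp1, and 14.1 to 15.5 CPM in Mgp1U1 and Mgp2 (0.51 ± 0.04; limma, adjusted p = 7.919e-07). Slpi, a secreted inhibitor of leukocyte serine proteases, stood at 613 and 559 CPM in Mgp1U3 against 448 to 516 CPM (0.32 ± 0.05; limma, adjusted p = 5.627e-04), a 1.27-fold difference. With Serpina3g (0.17) and Saa3 (0.16), both from few reads and in families of similar sequence where reads are assigned uncertainly, 5 of 12 such genes tested were higher and none was lower, with a median of 0.07. The shares over all genes tested were 5.05% higher and 4.58% lower.

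The genes of the NF-kappaB pathway itself differed little. Of 25 subunits and feedback genes tested, 2 were higher and none was lower, with a median of 0.045. For this list and those that follow in this paragraph, the shares over all genes tested were 5.05% higher and 4.58% lower. Nfkbiz, an inducible nuclear cofactor of NF-kappaB, stood at 30.6 and 31.9 CPM in Mgp1U3 against 22.7 to 27.6 CPM (0.18; limma, adjusted p = 0.00847). Tnfaip3, which encodes the feedback inhibitor A20, stood at 106 and 106 CPM against 87.99 to 98.5 CPM (0.15; limma, adjusted p = 0.01789). Neither was called against each line. The inhibitor Nfkbia (0.11; limma, adjusted p = 0.09319), the subunits Rel (0.12; 0.0833), Rela (0.10; 0.1408), Nfkb1 (0.08; 0.1513) and Relb (0.08; 0.1782) did not pass. Of 27 receptors and signalling genes upstream of NF-kappaB, 4 were higher and none was lower, with a median of -0.01, and none of the 4 was called against each line. They were the receptor genes Tlr2 (0.19) and Cd14 (0.18), which sense bacterial products, and Il1rap (0.15) and Il1rl1 (0.13) of the interleukin 1 receptor family. Il1r1, the receptor to which interleukin 1 alpha binds, had 34.2 and 30.1 CPM against 29.0 to 38.2 CPM, and the adaptor Myd88 had 24.2 and 24.9 CPM against 24.0 to 27.6 CPM (limma, adjusted p = 0.3678 and 0.6297). Of 20 genes of the STAT3 and C/EBP pathway, the receptor genes Il6st (0.19) and Osmr (0.13) were higher.

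Of 14 matrix proteases and inhibitors tested, 5 were higher, 1 was lower and 8 did not pass, with a median of 0.04. Among all genes tested, 5.05% were higher and 4.58% lower. Mmp3, which encodes stromelysin 1, a protease that cleaves many matrix proteins, stood at 149 and 138 CPM in Mgp1U3, 103 and 96.7 CPM in Mgp1, 91.5 and 83.8 CPM in Mgp1U1, and 70.0 and 73.2 CPM in Mgp2. The groups did not overlap, and the difference was 0.61 ± 0.04 (SE; limma, adjusted p = 2.272e-07), or 1.68-fold. Mgp2 lay below Mgp1 (limma, adjusted p = 0.001201) and Mgp1U1 (0.01904). Mmp13, a collagenase gene that lies near Mmp3 on chromosome 9, stood at 11.6 and 8.77 CPM against 3.01 to 6.11 CPM, a 2.44-fold difference (0.40 ± 0.05; limma, adjusted p = 1.53e-04). Adamts1, a secreted protease that cleaves proteoglycans, stood at 122 and 123 CPM against 74.7 to 87.9 CPM (0.48 ± 0.04; limma, adjusted p = 9.484e-07), and no pair among the other lines passed the test. The remaining higher genes were Mmp10, at 19.98 and 22.4 CPM against 12.2 to 17.4 CPM (0.27), and Mmp9, at 15.3 and 17.7 CPM against 10.5 to 15.7 CPM (0.14; limma, adjusted p = 0.04209), where the libraries overlapped. Mmp11 was lower by -0.14. The inhibitor Timp1 had 114 and 113 CPM against 100.2 to 125 CPM.

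The other genes among the 14 furthest above each line have varied roles. Tfrc, which encodes the transferrin receptor for iron uptake, stood at 507 and 525 CPM in Mgp1U3 against 352 to 440 CPM (0.38 ± 0.04; limma, adjusted p = 1.067e-04). Ctgf, a secreted matrix-associated growth regulator now named Ccn2, stood at 65.9 and 67.0 CPM against 43.7 to 53.2 CPM (0.33 ± 0.04; limma, adjusted p = 1.702e-04), and 23.2% of its exon bases overlap the gene model Gm15270. Prl2c2, of the prolactin family, stood at 60.7 and 61.4 CPM against 33.3 to 45.4 CPM (0.44), but near-identical copies exist and its reads are uncertain. The naming rule required that none of these 3 genes overlapped with the other lines.

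The ordering of the 14 highest genes among the other lines was mixed. Mgp1 was the line next below Mgp1U3 for 7 of them, Mgp2 for 5 and Mgp1U1 for 2. The plot of differences by line shows where each line stood. C3 was 0.31 above Mgp1 (limma, adjusted p = 0.001627) but 0.62 above Mgp1U1 (6.682e-07), while Ccl2 and Adamts1 lay at similar distances from all 3.

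**Figure D3:**
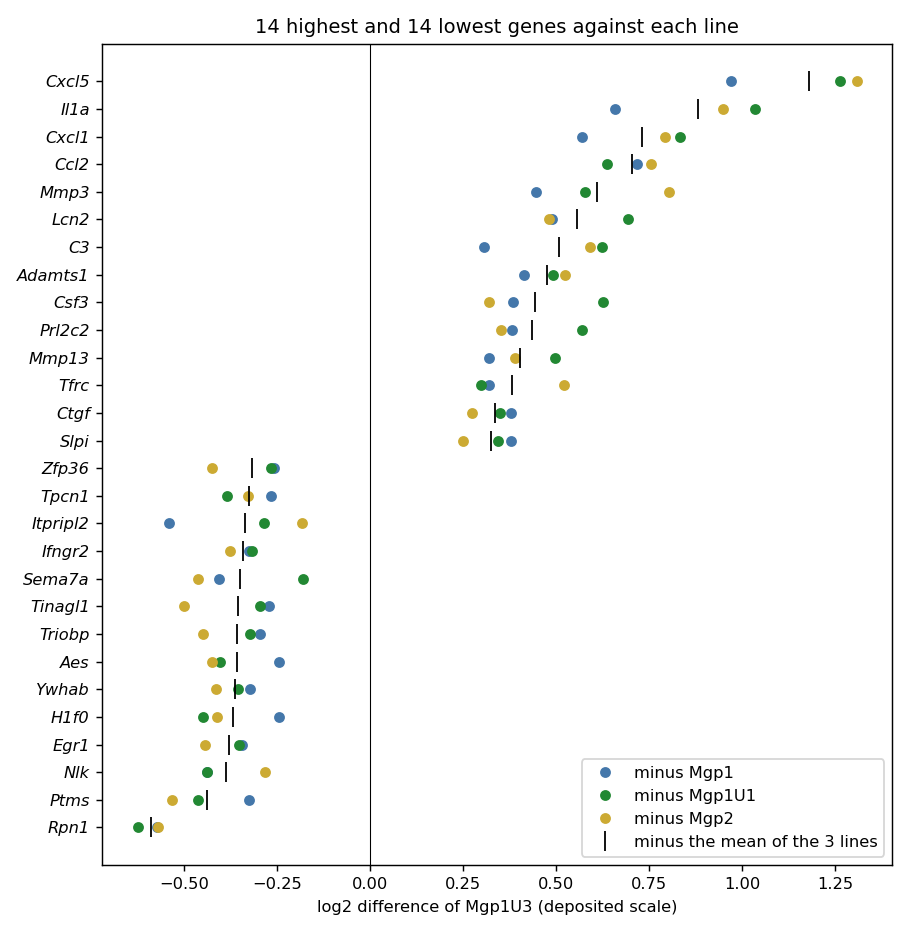
Log2 differences (x axis) of the 14 highest and the 14 lowest genes of the Mgp1U3 line, with 1 row for each gene, coloured points for the difference from each of the 3 other lines and a black bar for the difference from their mean. All points of a gene lie on the same side of 0, which the rule for naming these genes required.

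Among the genes that were lower, Rpn1 had the largest difference on the log2 scale, though Mgp, Zfp36 and Ptms fell further as a fold of scaled reads (0.266, 0.562 and 0.606 times). Rpn1 encodes ribophorin 1, a subunit of the oligosaccharyltransferase that attaches sugar chains to new proteins in the endoplasmic reticulum. Rpn1 (ENSMUSG00000030062, plus strand of chromosome 6, 88084482 to 88105304) stood at 151 and 149.7 CPM in Mgp1U3, 241 and 244 CPM in Mgp1, 253 and 246 CPM in Mgp1U1, and 232 and 249 CPM in Mgp2. The 6 other libraries lay within a narrow band, no pair among the other 3 lines passed the test, and the Mgp1U3 libraries lay below all of them. The difference was -0.59 ± 0.04 (SE; limma, adjusted p = 8.93e-08), or 0.626 times the scaled reads. The chaperones of the same compartment did not share that direction. Of 18 tested, 5 were higher and none was lower, with a median of 0.09, where 5.05% of all genes tested were higher and 4.58% lower. The 5 were Canx (0.23), Hspa5 (0.22), Dnajc3 (0.15), Pdia3 (0.15) and Hyou1 (0.12), with limma adjusted p from 0.005389 for Canx to 0.04706 for Hyou1, and Canx alone was called against each line.

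The next lower genes were smaller in their difference. Ptms, which encodes the small acidic nuclear protein parathymosin, stood at 31.0 and 27.3 CPM in Mgp1U3 against 42.0 to 63.2 CPM, the highest being Mgp2 replicate 1 (-0.44 ± 0.06; limma, adjusted p = 8.3e-04). Nlk, a kinase that acts on the Wnt pathway, stood at 72.3 and 70.0 CPM against 89.0 to 109 CPM (-0.39 ± 0.04; limma, adjusted p = 3.969e-05). H1f0, a linker histone of resting cells, stood at 751 and 691 CPM against 870 to 1028 CPM (-0.37). Ywhab, a 14-3-3 adaptor protein, stood at 408 and 400.3 CPM against 517 to 566 CPM (-0.36 ± 0.04; limma, adjusted p = 4.714e-05). The rule for naming these genes required that none overlapped with the other lines.

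Ifngr2, which encodes a chain of the interferon gamma receptor, stood at 16.8 and 17.0 CPM in Mgp1U3 against 26.2 to 30.5 CPM, 0.628 times the scaled reads (-0.34 ± 0.04; limma, adjusted p = 1.067e-04). Sema7a, a membrane-anchored semaphorin, stood at 29.9 and 28.1 CPM against 35.3 to 50.3 CPM (-0.35), and Tinagl1, a secreted matrix protein, at 133 and 129 CPM against 161 to 204 CPM (-0.36). The remaining 6 of the 14 lowest were the transcriptional corepressor Aes (-0.36), the actin-binding protein Triobp (-0.36), Itpripl2 (-0.34), the endolysosomal channel Tpcn1 (-0.33) and the immediate early genes Egr1 and Zfp36. Without Mgp1U3 replicate 2, 10 of the 14 lowest and all 14 of the highest were still called.

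Immediate early genes, which respond within minutes to growth factors and stress, were more often lower than higher. Of 23 tested, 8 were lower and 3 were higher, with a median of -0.06, where 4.58% of all genes tested were lower and 5.05% higher. Egr1, a zinc finger transcription factor, stood at 23.6 and 21.9 CPM in Mgp1U3 against 34.5 to 43.5 CPM (-0.38 ± 0.04; limma, adjusted p = 1.53e-04). Zfp36, which encodes tristetraprolin, a protein that speeds the decay of mRNAs with AU-rich elements, stood at 8.09 and 7.95 CPM against 11.6 to 17.99 CPM (-0.32 ± 0.04; limma, adjusted p = 4.11e-04). These were the 2 of the list called against each line. Jun, an AP-1 subunit, stood at 91.3 and 82.4 CPM in Mgp1U3, against 90.9 and 97.7 CPM in Mgp1U1 and 119 to 132 CPM in Mgp1 and Mgp2 (-0.28; limma, adjusted p = 0.001068), so its libraries overlapped with those of Mgp1U1. Jund (-0.21), Ier2 (-0.19), Junb (-0.17), Dusp6 (-0.15) and Egr2 (-0.14) were lower, and Klf6 (0.24), Atf3 (0.14) and Klf4 (0.12) were higher. Fos, at 1.95 and 2.07 CPM against 1.45 to 2.12 CPM, did not pass (0.03; limma, adjusted p = 0.5535).

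**Figure D4:**
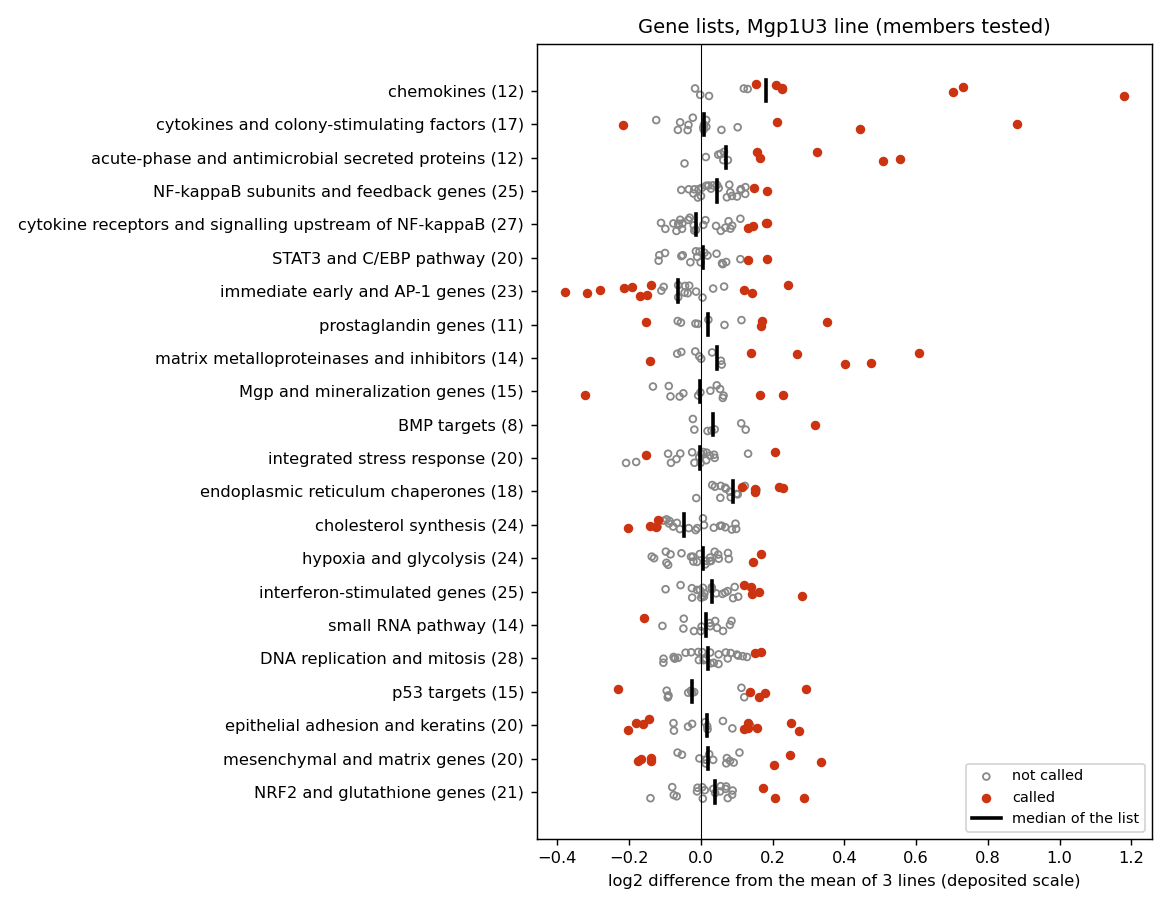
Log2 differences of the Mgp1U3 line from the mean of the 3 other lines (x axis) for the tested members of 22 gene lists (y axis, number tested in brackets), with filled points for called genes, open points for genes that were not called and bars for medians. The chemokine list has the highest median, 0.18, and the immediate early list the lowest, -0.06.

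Keratins of simple epithelia were lower. Krt8 stood at 338 and 338 CPM in Mgp1U3 against 387 to 422 CPM (-0.20; limma, adjusted p = 0.004009), and its partner Krt18 at 460 and 467 CPM against 509 to 558 CPM (-0.18; 0.007605). Krt7 (-0.16) and Krt19 (-0.14) were lower as well, and Msln, the surface antigen mesothelin, stood at 89.5 and 96.7 CPM against 109 to 121 CPM (-0.21; limma, adjusted p = 0.004009). Of these 5 genes Msln was called against each line. Krt16, a keratin of stressed epidermis, was higher at 3.68 and 4.72 CPM against 1.22 to 2.37 CPM (0.25; limma, adjusted p = 0.001408), and the desmosomal gene Dsp was higher by 0.27. Of 20 epithelial genes tested, 6 were higher and 4 were lower, with a median of 0.02. Of 20 mesenchymal and matrix genes, 3 were higher (Ctgf, Thbs1 and Tnc) and 4 were lower, Snai1 (-0.17) and Col6a2 (-0.17) among them. Both lists are to be read against the shares over all genes tested, 5.05% higher and 4.58% lower.

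The other lists are to be read against the 9.63% of all genes tested that were called, 5.05% higher and 4.58% lower. Among prostaglandin genes 3 of 11 were higher and 1 was lower, led by Ptgs2, the inducible cyclooxygenase, at 1421 and 1573 CPM in Mgp1U3. Ptgs2 stood at 1425 and 1491 CPM in Mgp1, 986 and 959 CPM in Mgp1U1, and 1149 and 1191 CPM in Mgp2. The difference from the mean was 0.35 (limma, adjusted p = 2.816e-04), but Mgp1U3 and Mgp1 overlapped and their difference did not pass (0.5541). Interferon-stimulated genes had 5 of 25 higher and none lower, with Gbp2 at 8.82 and 9.44 CPM against 4.02 to 5.54 CPM (0.28; limma, adjusted p = 3.18e-04). Cholesterol synthesis had 4 of 24 lower and none higher (Lss, Mvd, Acat2 and Pmvk, from -0.20 to -0.12), with a median of -0.05. Among p53 targets 4 of 15 were higher, led by Plk2 at 50.8 and 53.7 CPM against 37.4 to 41.9 CPM (0.29; limma, adjusted p = 1.569e-04), and 1 was lower (Zmat3, -0.23), although the median was -0.02. Besides Mgp, 2 of the 15 mineralization genes were called, Nt5e (0.23) and Slc20a1 (0.17), both higher, and Id2 (0.32) was the called gene among 8 targets of bone morphogenetic protein signalling. Genes of the small RNA pathway, on which hairpins depend, had 1 call in 14, Ago3, at 70.9 and 74.3 CPM against 78.5 to 90.6 CPM (-0.16; limma, adjusted p = 0.01291). NRF2 and glutathione genes had 3 of 21 higher, the integrated stress response 1 of 20 higher and 1 lower, hypoxia and glycolysis 2 of 24 higher, and DNA replication and mitosis 2 of 28 higher.

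The remaining lines of the series give the range of these genes in 4T1 cells. Cxcl5 stood at 5.12 and 5.49 CPM in 88943, whose puromycin selection differs, and at 7.68 to 13.1 CPM in the 8 libraries of the gene-named hairpins against Slpi, which stand in a table that was normalized separately and were not tested against Mgp1U3. Il1a stood at 0.185 and 0.343 CPM in 88943 and at 0.491 to 2.02 CPM in the 8 Slpi-directed libraries. The genes counted next were chosen as extremes of Mgp1U3, and the share of all genes that lie outside these libraries was not computed. All 14 of the highest genes were higher, and all 14 of the lowest were lower, in both Mgp1U3 libraries than in every one of the 8 Slpi-directed libraries. The same held for all 14 highest and 11 of the 14 lowest against 88943, where Itpripl2 (111 and 114 CPM) lay below Mgp1U3 and Sema7a and Ywhab overlapped with it. It held for 13 of the 14 highest and all 14 lowest against 66708, the puromycin-selected hairpin of the Slpi table, where Mmp3 stood above Mgp1U3 at 181 and 176 CPM. The other Mgp lines shared much of that distance, since 13 of the 14 highest genes lay above all 8 in Mgp1, and 10 in Mgp1U1 and in Mgp2. Of the 14 lowest genes, 6 lay below all 8 in Mgp1, 4 in Mgp1U1 and 3 in Mgp2. Rpn1 in the other Mgp lines was not below them: it stood at 196.5 to 211 CPM in the Slpi-directed libraries, below the other Mgp lines and above Mgp1U3. Slpi, which is among the 14 highest genes in these counts, is the target of the hairpins in the Slpi table. Its level in the 8 Slpi-directed libraries, 46.9 to 61.9 CPM, is that of a targeted gene, so its place in the counts is no separate result.

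**Figure D5:**
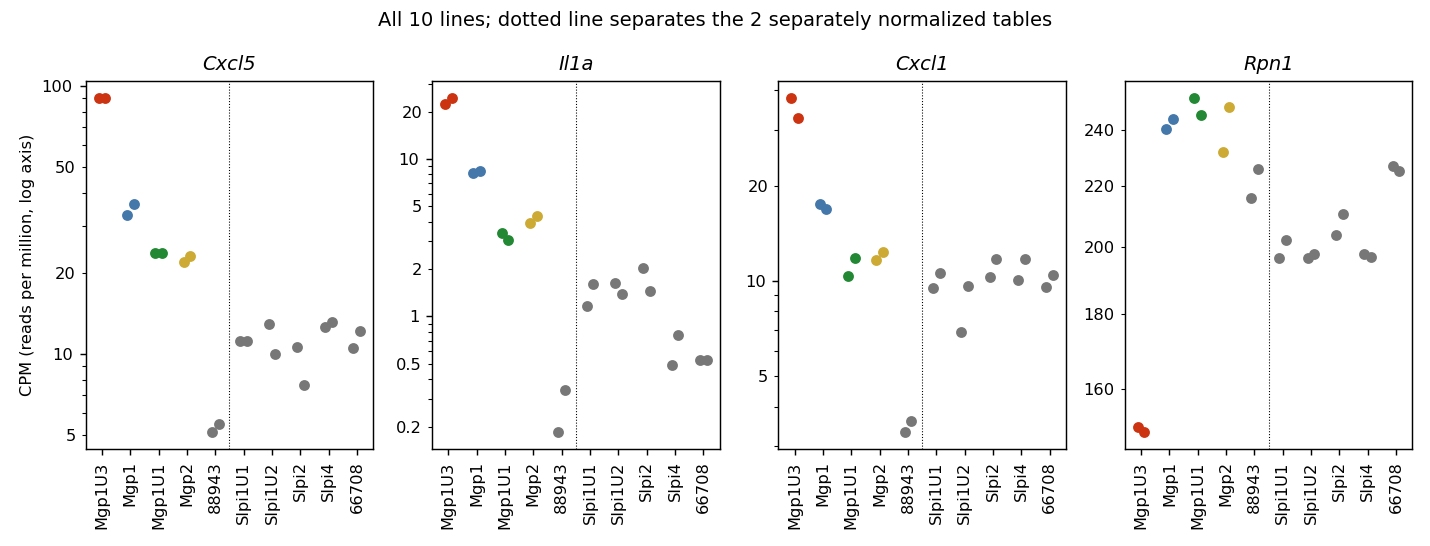
Levels in CPM (y axes, log scale) of Cxcl5, Il1a, Cxcl1 and Rpn1 in both libraries of all 10 lines (x axes), where the dotted line separates the Mgp table from the Slpi table. The Mgp1U3 points lie highest for the first 3 genes and lowest for Rpn1.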

How the data were processed

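Per the labels' protocols, libraries were made from 100 ng of DNase-treated RNA with the NuGEN Ovation V2 kit and read at 76 bp from fragments near 200 bp. The authors' deposited values are log2-like, variance-stabilized values per gene. The submitters' processing notes name mm10, Bowtie2, HTSeq and DESeq, without versions. Neither the annotation nor the strand setting is given in the sources used here. The transform was inverted from the smallest value of the table (8.12), and 100% of the values gave whole reads within 0.001. CPM and folds come from these reads, and intervals or limits on them cover counting error alone.

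The test was limma's moderated test (limma 3.58.1 under R 4.3.3, variance trended on intensity) on the deposited values of 8 columns, in a means model with 1 coefficient for each line, two-sided, with Benjamini-Hochberg adjustment over the 12232 genes that averaged 10 scaled reads or more in these columns. Each of the 3 pairs came from the same fit. The fit was tested on simulated reads that gave every gene and library the same extra spread. The libraries here differed in spread, so that test does not show how the fit behaves on them. Named genes were Mgp, Slpi, Cxcl5, Cxcl1, Ccl2 and Lcn2, the 14 highest and 14 lowest differences called against the mean and each line and outside the range of the other 6 libraries, leaving aside gene models that have only a clone or model number, and up to 5 called members of each list. Members of the chemokine, cytokine, acute-phase, NF-kappaB and upstream lists were also named without a call. Mmp9, Timp1, Ier2, Junb, Dusp6, Egr2, Atf3, Klf4, Fos and Cdh1 were named after their values were seen. The members and lists were chosen with earlier results of these data known. Of 544 list entries 543 were found in the table, 8 by an older symbol. Gene positions are from GENCODE M21 (GRCm38). Alternatives were voom on the recovered reads, other filters and scalings, 88943 in the fit, no trend, a replicate block, line means as samples and leaving out lines or libraries.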

Additional observations from a re-analysis of the deposited data

How the results depend on the processing

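Cxcl5, Cxcl1, Ccl2 and Lcn2 were higher in the Mgp1U3 line under all 20 alternatives, with limma adjusted p of at most 0.001956, 0.009579, 0.00202 and 0.03202, and no gene named as called reversed (genes named without a call were not followed). The count of 1178 calls was 518 without a filter, and 7 with line means as samples, where the Mgp difference of -0.3239 no longer passed (limma, adjusted p = 0.7233, while all 18 other alternatives that tested it passed) and 836 genes had an unadjusted p under 0.05. Leaving out 1 library at a time gave 79 to 2765 calls, and a line left with 1 sample was assumed to vary like the others. The 107 genes called against each line became 37 without a filter, 170 with 88943 in the fit, 171 without the Mgp1 line, 442 without the Mgp2 line and 20 to 337 without 1 library at a time. With voom on the recovered reads 97 of the 107 were shared, and 1002 genes were called. All 28 of the highest and lowest genes were called under every alternative that tested them, except that line means as samples kept 7 and leaving out Mgp1U3 replicate 2 kept 24. Called genes named beyond these 28 were less steady, and kept the call in 7 (Pmvk) to 19 (Plk2) of the alternatives. Among the called chaperones, Canx kept it in 18, Dnajc3 in 11, Hspa5 and Pdia3 in 10 and Hyou1 in 8. Of the called genes followed besides Mgp and the 4 markers, 69 kept the call without a filter and 30 lost it. With column numbers as a replicate block the counts of called genes were 1470 and 154. Correlations of deviations between lines ran from -0.139 for Mgp1U1 and Mgp2 to 0.239 for Mgp2 and Mgp1U3. No label says whether the numbers pair libraries across lines. The depth of 12.08 M reads in Mgp1U3 replicate 2 limits the weakly read genes most, and Mgp rests on 19 and 15 reads.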
